A study of Homo sapiens with 2 samples.

Results

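CPEB1, CPEB2, CPEB3, CPEB4, PUM2 and NANOS1 encode RNA-binding proteins that act on the 3′ untranslated region of target mRNAs to set how often they are translated. They were chosen by name, as the CPEB, Pumilio and NANOS translational repressors, and all 6 were among the 44591 genes of the deposited table. The counts came from poly(A)-selected RNA of 2 human hepatocellular carcinoma cell lines, both of wild-type genotype per the labels and grown in the same serum-supplemented medium, MHCC97H with high and MHCC97L with low spontaneous metastatic potential. As background, both lines were derived from the parental line MHCC97, so they are related lines and not independent tumours. There was 1 library per line. Counted reads summed to 28967153 in MHCC97H and 24964246 in MHCC97L.

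As background, CPEB proteins bind the cytoplasmic polyadenylation element, a short U-rich sequence, and can either hold an mRNA silent with a short poly(A) tail or have the tail lengthened so that translation starts. Pumilio proteins bind the Pumilio response element and recruit the CCR4-NOT deadenylase, which shortens the tail. NANOS proteins bind next to Pumilio and also recruit CCR4-NOT. In liver and liver tumours, CPEB proteins are known for controlling angiogenic and stress-response mRNAs.

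Without replicates, every difference given here is between these libraries, with no replicate check and no p-value. Levels are in CPM, that is, scaled to a common number of reads, on library sizes scaled by the trimmed mean of M-values (TMM). Ratios are MHCC97H over MHCC97L with a 95% exact binomial interval of the gene's reads. Intervals cover the counting error of reads only, and variation between cultures is not in them. PCR copies cannot be told from separate molecules here, which is a further limit. The size rule asked for a log2 ratio of 1 or more in either direction whose interval left out 0. In this comparison 14578 genes had at least 1 CPM in at least 1 library and were kept. The ratio fell with the GC content of the transcript across kept genes (Spearman correlation -0.64, over genes, which are not independent) and rose with its length (0.37), so each ratio is also given after this trend was removed.

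Of the 6 genes, 5 were kept and 4 of these had a higher CPM in the MHCC97H library. A positive log2 ratio was found in 7491 of the 14578 kept genes. CPEB3 and NANOS1 met the size rule on the higher side and no gene met it on the lower side. Over all kept genes, 7.06% met the rule on the higher side and 4.65% on the lower side (1029 and 678 genes; 1657 and 471 with total counts in place of TMM scaling). At a 1.5-fold threshold PUM2 and CPEB4 were also higher, 4 of 5 kept genes in all, against 19.3% of all kept genes higher and 13.8% lower. CPEB2 stood close to equality, and CPEB1 was at or under the detection floor. With the GC and length trend removed, NANOS1 alone met the rule, against 2.64% of genes with a value higher and 3.44% lower.

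**Figure D1:**
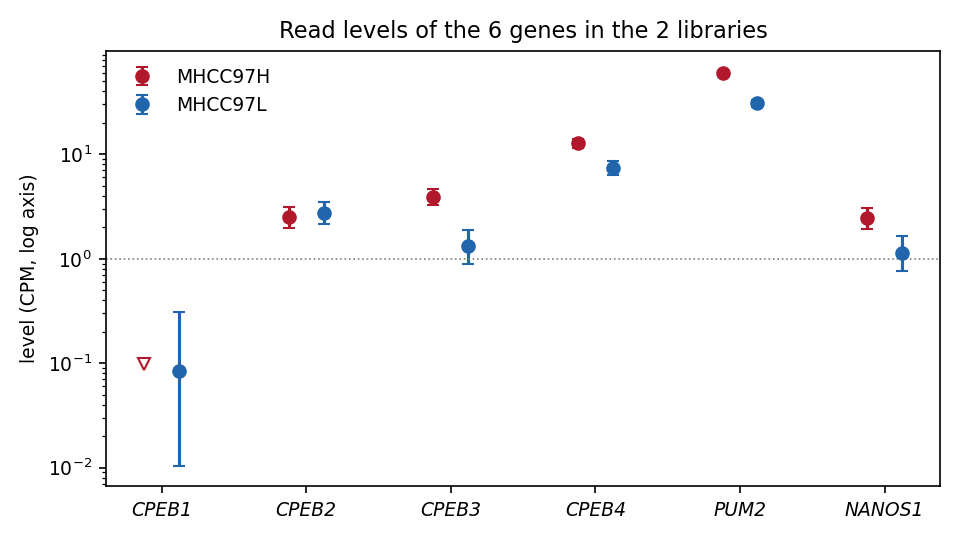
Level of each gene in CPM (log axis) in the MHCC97H (red) and MHCC97L (blue) libraries, 1 library each. Points are the measured levels, bars are 95% exact Poisson intervals, the open triangle marks the limit that a count of 0 allows, and the dotted line marks 1 CPM. PUM2 was the most abundant gene in both libraries, and the red and blue intervals of CPEB2 overlap while those of CPEB3, CPEB4, PUM2 and NANOS1 do not.

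PUM2, a Pumilio repressor that directs deadenylation of its targets, had 1862 reads in MHCC97H and 723 in MHCC97L. These counts equal 60.6 CPM and 30.7 CPM. The MHCC97H value was 1.97-fold higher (95% interval 1.81 to 2.15), a log2 ratio of 0.98. PUM2 thus lay just outside the 2-fold limit, and NANOS1, at 1.08, just inside it. PUM2 crossed the limit when total counts replaced TMM scaling (1.15) and when scaling used all genes with no filter (1.02). With the GC and length trend removed its log2 ratio was 0.37 (95% interval 0.25 to 0.50). Its longest GENCODE transcript has a GC content of 40.7%, and the trend value at that composition and length was 0.61.

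NANOS1, which encodes a zinc-finger partner of Pumilio proteins, had 75 reads in MHCC97H and 27 in MHCC97L. These gave 2.44 CPM against 1.15 CPM, a 2.11-fold higher value in MHCC97H (95% interval 1.35 to 3.43). The lower bound of that interval was under 2-fold, so the counts do not place the gene on one side of the fold limit. NANOS1 differed from the other members in its dependence on composition. Its transcript has a GC content of 50.9%, the highest of the 6 genes, and the trend value there was 0.02, so its log2 ratio of 1.08 became 1.05 once the trend was taken out. It then stood at percentile 97.7 of all genes with a value, compared with 94.2 of kept genes before. In GENCODE, NANOS1 shares 63 exonic bases with EIF3A on the opposite strand. EIF3A, which encodes a translation initiation factor subunit, had 5697 and 2806 reads, and since no strand setting is given, a NANOS1 read in that stretch may belong to EIF3A. There were 0.0132 NANOS1 reads per EIF3A read in MHCC97H and 0.00962 in MHCC97L, a ratio of 1.37 whose 95% exact conditional interval (0.868 to 2.22) spanned equality. The log2 difference between these genes was 0.44 as measured and 0.89 with the trend removed. The part of EIF3A reads in the NANOS1 count was not tested.

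CPEB3, which in mouse neurons holds receptor mRNAs silent until synaptic stimulation, had 121 reads in MHCC97H and 31 in MHCC97L. At 3.94 CPM against 1.32 CPM it was 2.96-fold higher in MHCC97H (95% interval 2.00 to 4.59). This was the largest ratio of the 5 kept genes, at percentile 98.7 of all kept genes. With the trend with GC content alone removed the log2 ratio was 1.07, and with GC content and length removed it was 0.98 (95% interval 0.42 to 1.62), just under the limit. That corrected value stood at percentile 97.2 of genes with a value.

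CPEB4, which encodes the CPEB protein with roles in mitosis, the liver stress response and tumour growth, had 394 reads in MHCC97H and 174 in MHCC97L. Its level was 12.8 CPM against 7.40 CPM, 1.73-fold higher in MHCC97H (95% interval 1.45 to 2.08). Its transcript is the longest of the 6, at 9483 bases, and the poorest in GC, at 38.5%. The trend value at that point was 0.72, and the log2 ratio of 0.79 became 0.08 (95% interval -0.18 to 0.34) once the trend was removed. The measured CPEB4 ratio was therefore about the size that the trend gives for its composition and length.

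CPEB2, the paralog known for slowing translation elongation of HIF1A mRNA, had 77 reads in MHCC97H and 65 in MHCC97L. Its level of 2.50 CPM in MHCC97H and 2.76 CPM in MHCC97L gave a log2 ratio of -0.14 (95% interval -0.64 to 0.36). The counts thus did not separate the libraries, and the sign turned with total-count scaling (0.03). With the trend removed the log2 ratio was -0.56 (95% interval -1.05 to -0.06), on the opposite side of equality from the other 4 kept genes.

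CPEB1, the founding member of the family and the regulator of meiotic maturation in frog oocytes, had 0 reads in MHCC97H and 2 in MHCC97L. A count of 0 allows up to 0.0976 CPM in MHCC97H (3 reads over the scaled library size). No fold is given, since both counts lay under a floor of 3 reads. In GENCODE 1793 exonic bases of CPEB1 are shared with AC245033.1 on the same strand, and how reads in shared stretches were counted is not given in the sources used here. Its antisense gene CPEB1-AS1 also had 0 reads in both libraries.

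**Figure D2:**
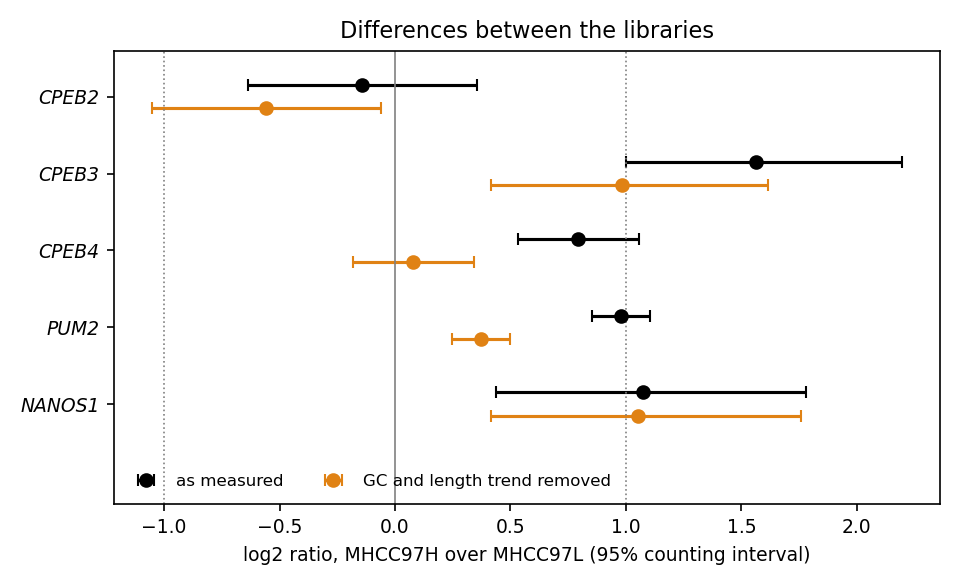
Log2 ratio of MHCC97H over MHCC97L for the 5 kept genes, as measured (black) and with the GC and length trend removed (orange), with 95% counting intervals. Solid and dotted vertical lines mark equality and 2-fold. NANOS1 kept its place (1.08 and 1.05), CPEB4 moved to near equality (0.79 to 0.08), and CPEB2 moved below it (-0.14 to -0.56).

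Within the CPEB family the make-up of the reads differed between the libraries, a comparison that needs no scaling. The 4 genes held 592 reads in MHCC97H and 272 in MHCC97L. CPEB3 made up 20.4% of them in MHCC97H (95% exact binomial interval 17.3 to 23.9) and 11.4% in MHCC97L (7.88 to 15.8). CPEB2 went the other way, with 13.0% (10.4 to 16.0) against 23.9% (19.0 to 29.4). CPEB4 was the main form in both, with 66.6% (62.6 to 70.3) and 64.0% (58.0 to 69.7). The intervals of CPEB3 and of CPEB2 did not overlap between libraries, while those of CPEB4 did. Shares are parts of a fixed whole, so a larger share of any gene lowers those of the others. CPEB2 itself had 77 and 65 reads, and its level stood close to equality (log2 ratio -0.14, 95% interval -0.64 to 0.36). There were 1.57 CPEB3 reads per CPEB2 read in MHCC97H and 0.477 in MHCC97L, a ratio of 3.28 (95% exact conditional interval 1.91 to 5.72). The transcripts of these paralogs are alike in GC content (41.5% for CPEB3 and 44.1% for CPEB2) and length (7664 and 6878 bases). Their log2 difference changed little when the trend was removed, from 1.71 to 1.54. CPEB4 reads per CPEB2 read were 5.12 and 2.68, a ratio of 1.91 (1.29 to 2.83), and CPEB3 reads per CPEB4 read were 0.307 and 0.178, a ratio of 1.72 (1.10 to 2.75). With the trend removed, the log2 difference of CPEB4 and CPEB2 went from 0.93 to 0.63. That of CPEB3 and CPEB4 went from 0.77 to 0.91.

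**Figure D3:**
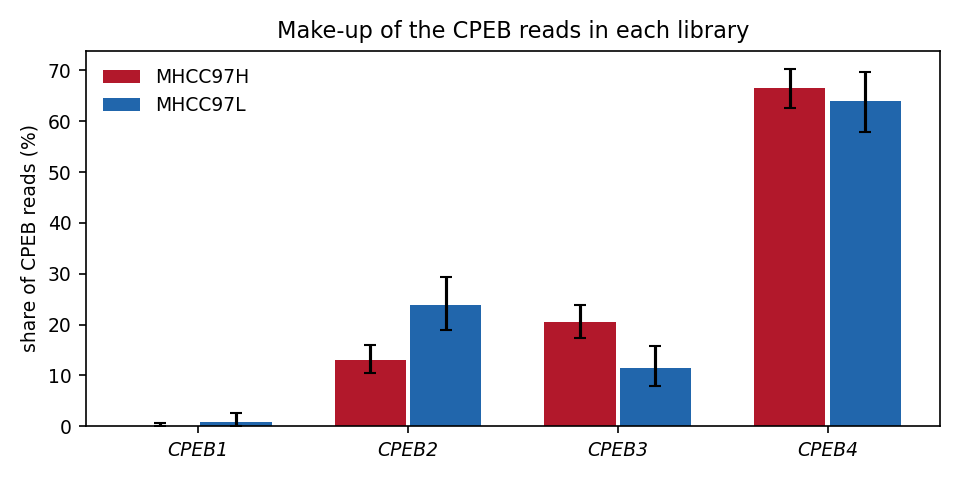
Share of each CPEB gene in the reads of the 4 CPEB genes (%), in the MHCC97H (red, 592 reads) and MHCC97L (blue, 272 reads) libraries, with 95% exact binomial intervals. CPEB4 took most reads in both, CPEB3 was second in MHCC97H and CPEB2 was second in MHCC97L.

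Levels between genes were compared per kilobase of the longest GENCODE transcript. In the MHCC97H library PUM2 stood at 9.69 CPM per kilobase, followed by CPEB4 at 1.35, NANOS1 at 0.607, CPEB3 at 0.513 and CPEB2 at 0.364. In the MHCC97L library the order was PUM2 at 4.92, CPEB4 at 0.780, CPEB2 at 0.402, NANOS1 at 0.286 and CPEB3 at 0.172 CPM per kilobase. PUM2 and CPEB4 led in both, and CPEB2 was the lowest of the 5 in MHCC97H while CPEB3 was the lowest in MHCC97L. Some neighbours in these orders did not differ beyond counting error. The intervals of NANOS1 (0.478 to 0.761) and CPEB3 (0.426 to 0.614) overlapped in MHCC97H, as did those of CPEB3 and CPEB2 (0.287 to 0.455). In MHCC97L those of CPEB2 (0.310 to 0.512) and NANOS1 (0.188 to 0.416) overlapped, and so did those of NANOS1 and CPEB3 (0.117 to 0.244). Even PUM2 was of middling abundance, at percentile 60.6 of kept genes per kilobase in MHCC97H and 47.5 in MHCC97L, and the 3 lowest genes stood below percentile 10 in both libraries. A gene whose expressed transcript is shorter than the longest annotated one would stand higher on this scale. By levels in the 2 libraries, among 88 other kept genes of the lists used here, the nearest to PUM2 were LSM14A (distance 0.11 in log2 CPM) and TJP1 (0.37). The nearest to CPEB4 were PAPD5 (0.22) and CNOT6L (0.37). CPEB3 and NANOS1 were nearest to each other (0.72), and CPEB2 was nearest to APOB (0.71) and PDGFRB (0.81).

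The promoter windows of CPEB3, CPEB2 and NANOS1 are shown because CPEB3 and CPEB2, close paralogs, differed in their ratios while CPEB3 and NANOS1 met the size rule. Each runs from 250 bases before to 50 bases after a transcription start in RefSeq (GRCh38.p14), 5′ to 3′ on the gene's strand, with the GC box GGGCGG or its reverse complement in capitals. The windows lie at chr10:92291029-92291328 on the minus strand for CPEB3 (the first of 2 starts), chr4:15002231-15002530 on the plus strand for CPEB2 and chr10:119029464-119029763 on the plus strand for NANOS1.
CPEB3: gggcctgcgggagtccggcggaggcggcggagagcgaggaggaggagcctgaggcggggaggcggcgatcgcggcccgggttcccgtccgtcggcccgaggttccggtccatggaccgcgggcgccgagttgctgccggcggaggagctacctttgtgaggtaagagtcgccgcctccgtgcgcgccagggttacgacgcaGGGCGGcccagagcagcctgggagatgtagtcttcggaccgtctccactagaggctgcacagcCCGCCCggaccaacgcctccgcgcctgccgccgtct
CPEB2: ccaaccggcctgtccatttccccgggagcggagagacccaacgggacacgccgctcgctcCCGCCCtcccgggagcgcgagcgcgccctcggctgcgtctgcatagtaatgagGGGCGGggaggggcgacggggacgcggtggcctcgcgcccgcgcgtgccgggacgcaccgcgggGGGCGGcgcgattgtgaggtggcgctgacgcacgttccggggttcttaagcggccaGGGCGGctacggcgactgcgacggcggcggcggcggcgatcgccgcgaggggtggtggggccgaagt
NANOS1: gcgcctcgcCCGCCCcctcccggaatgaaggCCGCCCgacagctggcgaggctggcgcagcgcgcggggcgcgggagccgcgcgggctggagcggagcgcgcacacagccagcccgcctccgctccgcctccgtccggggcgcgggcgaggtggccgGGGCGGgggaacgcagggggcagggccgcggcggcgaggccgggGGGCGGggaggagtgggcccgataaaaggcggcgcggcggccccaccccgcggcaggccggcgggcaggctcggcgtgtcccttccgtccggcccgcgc
The GC box was found 2 times in the CPEB3 window, 4 times in that of CPEB2 and 4 times in that of NANOS1. Of 35116 RefSeq promoter windows, 44.95% hold it on either strand. GC content was 73.0%, 76.0% and 83.3% in the same order, against a median of 58.7% over all windows, and the number of CG dinucleotides was 40, 51 and 51 against a median of 14. On either strand, none of these 3 windows holds the CCAAT box (CCAAT), which 34.6% of all windows hold, the TATA box (TATAAA, 11.5%) or the E-box (CACGTG, 7.26%). The second CPEB3 window differs from the first, with a GC content of 44.3%, no GC box and 1 CCAAT box, and which start these cells use was not measured. A match is a description and no evidence of binding.

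The binding elements of these proteins were searched in the transcripts of the same genes. The Pumilio response element, UGUANAUA on the transcript strand, occurred in the 3′ untranslated region of the longest GENCODE protein-coding transcript of PUM2 (2 matches) and CPEB3 (2). No match was found in CPEB2, CPEB4 or NANOS1. The matched sites of PUM2 and CPEB3 are shown because they hold the letters of the element that Pumilio proteins bind. A match is no evidence of binding, and which 3′ ends these cells use was not measured. The element is in capitals and the sites run 5′ to 3′.
PUM2 site 1: guuuauagagaUGUAUAUAgaauuauaguc
PUM2 site 2: uacagaaauauUGUAUAUAcuuacauaugu
CPEB3 site 1: cccuuuuguuuUGUAAAUAaaugugccccc
CPEB3 site 2: guauucaguuuUGUAAAUAauauauagauu
Over the 12260 kept genes with such a region, 28.4% held at least 1 match. The cytoplasmic polyadenylation element, UUUUAU or UUUUAAU, was densest in 2 of the CPEB transcripts. Per kilobase of region, CPEB2 held 6.63 matches and CPEB4 4.28, against 3.11 in PUM2, 2.72 in CPEB3, 1.97 in NANOS1 and 1.44 in CPEB1. CPEB2 and CPEB4 each held 25 matches, at percentile 99.5 of the genes searched, CPEB3 held 15 and PUM2 held 9. NANOS1 held 6 and CPEB1 held 2. These regions are long, 3773 bases in CPEB2, 5520 in CPEB3 and 5839 in CPEB4, and longer regions hold more matches by length alone.

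Genes with Pumilio response elements had higher ratios as measured, but not once the trend was removed. The median log2 ratio was -0.05 over the 8784 genes with no match, 0.30 over the 2224 with 1, 0.45 over the 824 with 2 and 0.53 over the 428 with 3 or more. With the trend removed the medians were 0.03, 0.05, 0.04 and 0.01 in the same order. Median GC content fell from 52.5% to 40.6% across these groups, and the median length of the 3′ untranslated region rose from 890.5 to 4780 bases. The cytoplasmic polyadenylation element gave the same picture. The median was -0.26 over 4280 genes with no match and 0.65 over 975 genes with 10 or more, and 0.02 and 0.03 with the trend removed. The trend was fitted over these same genes, and the groups differ in GC content and length. A difference tied to the elements would therefore be taken out with the trend, at least in part. Whether the elements themselves go with the ratios was not tested. These are descriptions over genes, and the mRNA counts say nothing on translation itself.

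**Figure D4:**
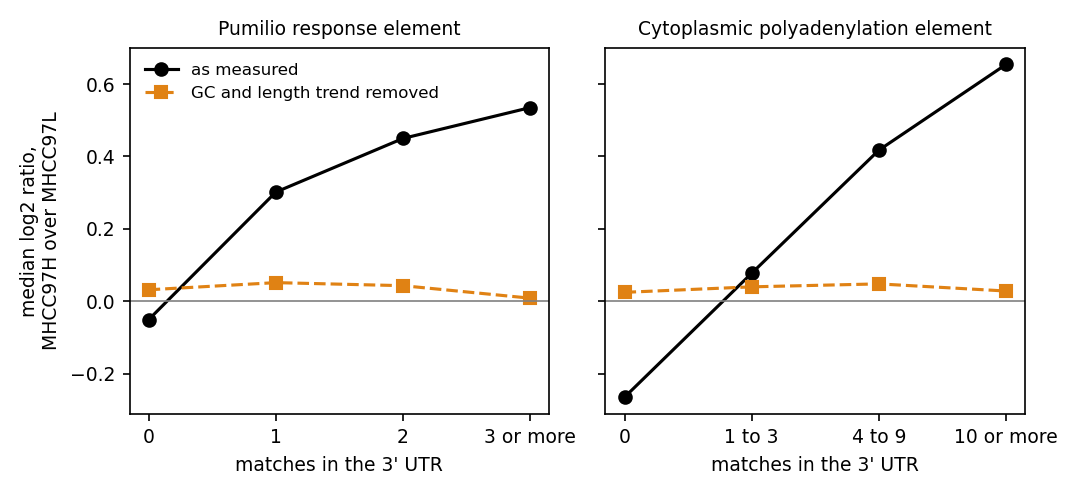
Median log2 ratio of MHCC97H over MHCC97L by the number of matches in the 3′ untranslated region, for the Pumilio response element (left) and the cytoplasmic polyadenylation element (right), as measured (black circles) and with the GC and length trend removed (orange squares). The black medians climb with the number of matches, from -0.05 to 0.53 on the left and from -0.26 to 0.65 on the right, while the orange ones stay between 0.01 and 0.05.

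Relatives and partners of the 6 genes were described from lists. Of 12 relatives and regulators, 5 were kept, all with a positive ratio, as had 7491 of all 14578 kept genes. Their median log2 ratio was 0.49 against 0.03 over all kept genes. With the trend removed the median was 0.17, again against 0.03, and the ratio of DDX20, an RNA helicase gene, was -0.26 (95% interval -0.45 to -0.05). PUM3, a nucleolar Pumilio-like protein of ribosome biogenesis, alone met the size rule, at 8.33 CPM in MHCC97H and 3.06 CPM in MHCC97L (log2 ratio 1.44, 95% interval 1.06 to 1.84, or 1.09 with the trend removed). NORAD, the noncoding RNA that sequesters Pumilio proteins, stood at 125.3 CPM against 76.5 CPM (0.71, or 0.17 with the trend removed), and KHDRBS1, which assists that binding, at 201.5 CPM against 144.9 CPM (0.48, or 0.36). The germ-cell relatives NANOS2, DAZL, BOLL and DAZ1 had 0 reads in both libraries, and NANOS3 had 11 and 6. PUM2 thus lay above its sequestering RNA in log2 ratio, with 0.98 against 0.71 as measured and 0.37 against 0.17 with the trend removed.

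Of 22 cytoplasmic polyadenylation factors and CPEB partners, none met the size rule in either direction, and the median log2 ratio was 0.31, or 0.10 with the trend removed. The most abundant were PABPC1, the cytoplasmic poly(A)-binding protein, at 1547 CPM against 1372 CPM (log2 ratio 0.17), and CPSF1, a subunit of the cleavage and polyadenylation factor, at 168.5 CPM against 219.4 CPM (-0.38). LSM14A, a P-body protein, had the highest measured ratio of the list (0.83, or 0.27 with the trend removed). The next list held 13 subunits of PAN2-PAN3 and of CCR4-NOT, the deadenylase that Pumilio and NANOS proteins recruit. The catalytic subunit genes CNOT6L (1.12, 95% interval 0.84 to 1.42) and CNOT6 (1.03, 0.88 to 1.17) met the rule on the higher side and none on the lower. Neither met it with the trend removed (0.33 and 0.35), and the list median went from 0.30 to -0.07. The scaffold gene CNOT1 (0.76, or 0.40 with the trend removed) and CNOT9 (0.10, or -0.07) were the most abundant. Of 13 genes of cap-dependent initiation, EIF4E, which encodes the cap-binding protein that CPEB and Pumilio complexes keep from use, stood at 27.3 CPM against 12.8 CPM (1.10, or 0.38 with the trend removed) and alone met the rule. EIF4A1 (0.28, or 0.35 with the trend removed) and EIF4G2 (0.66, or 0.25) were the most abundant, and the median was 0.21, or 0.23. Over the 4 lists, 4 of 53 kept genes were higher and none lower by the rule, and 1 was higher with the trend removed. The higher shares were near those of all genes (7.06% as measured and 2.64% with the trend removed). On the lower side the shares of all genes were 4.65% and 3.44%, against none of the 53. At 1.5-fold 14 were higher and none lower, against 19.3% and 13.8% of all kept genes. A positive ratio was found in 40 of the 53, against 7491 of 14578 kept genes. Their median log2 ratio was 0.31, or 0.09 with the trend removed.

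**Figure D5:**
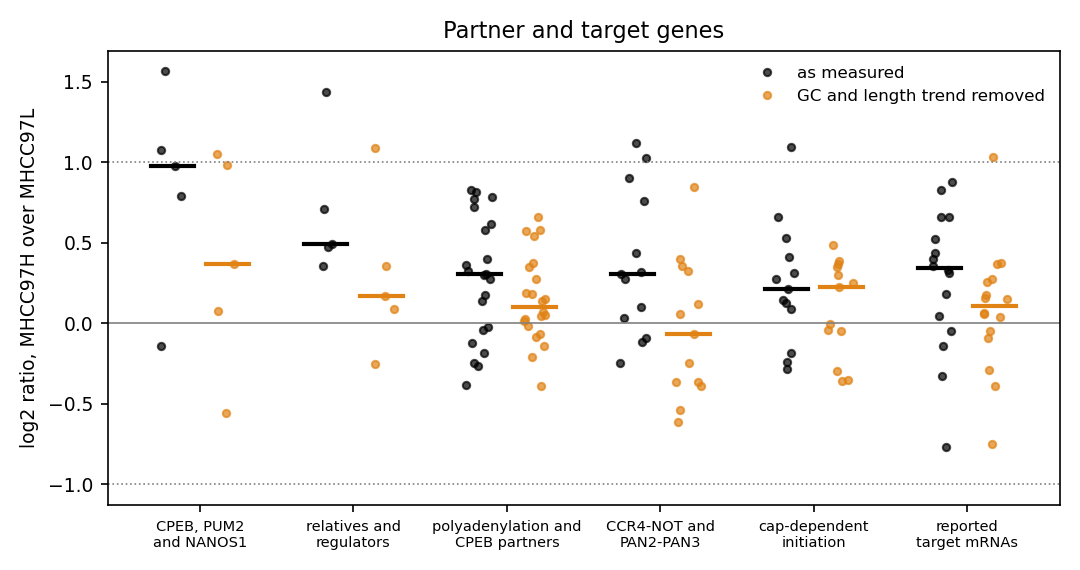
Log2 ratio of MHCC97H over MHCC97L for each kept gene of the 6 and of each list, as measured (black) and with the GC and length trend removed (orange). Thick bars are medians and dotted lines mark 2-fold. The 6-gene set has a median of 0.98 as measured and 0.37 after removal, and most partner genes lie within 2-fold in both views.

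mRNAs reported elsewhere as targets of these proteins did not differ 2-fold. Of 19, 16 were kept and none met the size rule, at a median log2 ratio of 0.34, or 0.11 with the trend removed. MYC, a reported CPEB1 target, stood at 234.5 CPM against 132.1 CPM (0.83), and with the trend removed was the only one past the limit (1.03). MTDH, reported for CPEB3, stood at 100.4 CPM against 54.6 CPM (0.88, or 0.38 with the trend removed). VEGFA, reported for CPEB1 and CPEB4 in the liver, had the lowest ratio of the list, at 68.3 CPM against 116.3 CPM (-0.77, or -0.75). HIF1A, reported for CPEB2, stood at 0.33 (-0.39 with the trend removed), and E2F3, reported for Pumilio proteins, at 0.35 (0.04). CTNND1 (0.43, or 0.16 with the trend removed) was the most abundant. MYC, MTDH, VEGFA, HIF1A and E2F3 were named for their reported regulator after their values were seen.

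The hepatic label was checked against 13 hepatocyte markers, of which 10 were kept. SERPINA1 (5800 CPM in MHCC97H and 8422 CPM in MHCC97L), HNF4A (80.8 and 96.6 CPM) and FOXA2 (159.0 and 174.7 CPM) were well detected in both libraries. ALB was at 1.85 and 5.57 CPM and met the size rule on the lower side (log2 ratio -1.58), and APOA1 had 4 reads in each. The summed level of the list was 6166 CPM in MHCC97H and 8856 CPM in MHCC97L, most of it from SERPINA1. Of 6 fibroblast and stellate markers, 4 were kept, with summed levels of 20.2 and 26.0 CPM. PDGFRB (-1.12) and COL1A2 (-1.25) met the rule on the lower side. With the trend removed COL1A2 still met it (-1.15) and PDGFRB did not (-0.96). COL1A1, the most abundant of the list, went the other way, at 9.20 CPM against 7.82 CPM (0.23, or 0.48 with the trend removed). COL3A1 stood at -0.22 in both views. None of 4 endothelial markers was kept (0.358 and 0.595 CPM summed), and of 4 leukocyte markers CD68 alone was, with CD3E at 0 in both and summed levels of 7.71 and 6.85 CPM. The part of these differences in the ratios of the 6 genes was not tested.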

How the data were processed

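The deposited file gives raw read counts per gene for 2 libraries, 1 per line, matched by the sample numbers in the labels. The submitters' processing notes name the build hg19, HTSeq 0.11.2, HISAT2 2.1.0 and bcl2fastq. Not given in the sources used here are the gene annotation, whether strand was used and how multi-mapped reads were handled. Reads from similar stretches of paralogs, or from overlapping genes, may therefore be assigned differently from what GENCODE would give.

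Genes with at least 1 CPM of total counts in at least 1 library were kept. TMM factors over kept genes were computed in edgeR 4.0.16 (R 4.3.3), 1.06 for MHCC97H and 0.942 for MHCC97L, and CPM values use these effective sizes, as does the limit for a count of 0 (3 reads). Log2 ratios used a prior count of 0.5, and intervals are exact Clopper-Pearson intervals of the split of a gene's reads. No test across samples was possible. Transcript GC content, length and 3′ untranslated regions came from the longest complete protein-coding transcript (or the longest transcript) in GENCODE release 29, matched by symbol or synonym for 14103 kept genes (96.7%). Its build differs from hg19, so no coordinates are given for the counted genes. The trend was removed by lowess (span 0.2), backfitted on GC content and log2 length. This took the standard deviation over genes from 0.69 to 0.54. Promoter sequences are from RefSeq (GRCh38.p14), where all 6 genes matched, and the window coordinates are of that build.

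The members, the lists and the element search were chosen with earlier results of these data known. Named genes of each list were those that met the size rule (up to 3 per direction) and the 2 most abundant, and others are named by role after their values were seen. A few items that this rule or the element search covers are not reported here. Alternatives covered scaling, with DESeq2 1.42.0 for median-of-ratios factors, the filter, threshold, the trend, the prior count, the interval and an assumed variation between libraries (coefficient 0.2). Other steps ran in Python 3.11.15 (statsmodels 0.14.6 for lowess, scipy 1.17.1 for intervals, pandas 2.3.3, numpy 2.4.6). The ratio, its interval and the trend removal were run on simulated counts with known changes. These counts held counting error and the trend fitted to these data, so variation between cultures was outside this check.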

Additional observations from a re-analysis of the deposited data

How the results depend on the processing

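CPEB3 and NANOS1 met the size rule under total counts, median-of-ratios factors, removal of the GC trend alone, no filter, a 99% interval, a prior count of 2 and an assumed coefficient of variation of 0.2. PUM2 joined them with total counts and with no filter. A filter at 5 CPM left 0 members higher, since it removed CPEB3 and NANOS1. A 1.5-fold threshold gave 4, and removal of the GC and length trend gave 1. No member was lower by the rule in any of these. Over kept genes the counts of higher genes were 1657 with total counts, 1563 with no filter, 648 with a 5 CPM filter, 2813 at 1.5-fold, 333 with the GC trend removed and 373 with the GC and length trend removed, against 1029. The counts of lower genes were 1362 with no filter, 245 with a 5 CPM filter and 2009 at 1.5-fold, against 678. Total counts moved the median log2 ratio of all kept genes by 0.17. Over the partner lists the higher genes were 14 at 1.5-fold and 1 with either trend removed, against 4. The cause of the shift with the trend was not tested. Per kilobase of longest transcript, the share of CPEB reads was 16.3% for CPEB2 and 60.6% for CPEB4 in MHCC97H and 56.9% for CPEB4 in MHCC97L. Per kilobase of merged exons, a choice made after seeing the data, it was 16.7% and 59.6% in MHCC97H, and 30.04% for CPEB2 and 56.2% for CPEB4 in MHCC97L. CPEB1, with at most 2 reads, is limited by depth. No paired analysis was possible because each line has 1 library.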
